A study of Homo sapiens with 48 samples.

Results

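The genes described here make, sense, move and export cholesterol, or make fatty acids. They are 34 genes chosen by symbol from a count table of 37706 genes: 7 for the early steps of the pathway (acetoacetyl-CoA to farnesyl diphosphate), 11 for the later squalene and sterol steps, 5 that control the SREBP transcription factors, 3 that move sterol inside the cell, 5 for LXR and cholesterol efflux, and 3 for fatty acid synthesis. All 34 were in the table and all 34 passed the filter on low counts that left 17749 genes for testing. Gene expression was measured by poly(A) RNA sequencing in 48 libraries. They came from 4 established human lymphoma cell lines, SUDHL6, Oci-Ly18, Oci-Ly7 and Oci-Ly8, all of the germinal centre B-cell type of diffuse large B-cell lymphoma (GCB-DLBCL). Each line was grown for 6 days with 1 of 4 treatments, in 3 libraries each: the solvent DMSO, EPZ-5676, which inhibits DOT1L (DOT1Li), GSK343, which inhibits EZH2 (EZH2i), or the 2 inhibitors combined. DOT1L and EZH2 are enzymes that methylate histone H3 at different lysines, a mark of transcribed genes for the former and of silenced genes for the latter. The sources used here give neither the doses, nor the mutations of each line, nor whether the 3 libraries of a group were separate cultures, so the p-values measure the spread between libraries, which may be technical. The labels spell the DOT1L inhibitor in 2 ways (EPZ-5676 and EZP-5676), and the protocol for cell growth lists Oci-Ly8 more than once and leaves Oci-Ly7 out.

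Cells make cholesterol from acetyl-CoA through the mevalonate pathway and sterol ring enzymes. When sterol in the endoplasmic reticulum is low, the SCAP protein escorts SREBP2 and SREBP1 (genes SREBF2 and SREBF1) to the Golgi, where they are cut and released to switch on nearly all synthesis genes together, while INSIG proteins hold SCAP back when sterol is plentiful. Oxysterols act the other way through the LXR receptors (NR1H2 and NR1H3), which induce the efflux pumps ABCA1 and ABCG1 and MYLIP, a ligase that degrades lipoprotein receptors. Proliferating cells use the synthesis arm for membrane sterol and for the isoprenoid anchors of proteins.

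RefSeq promoter windows (GRCh38.p14, from 250 bases before to 50 after the start, on the gene's strand) were found for 29 of the 34 genes. The entries for ACAT2, FDFT1, SQLE, ABCG1 and FASN were not among them. The windows of 4 synthesis genes that fell with the combination on average over the lines are shown. They are HMGCS1 (chr5:43313363-43313662, minus strand), FDPS (chr1:155308616-155308915, plus strand), MSMO1 (chr4:165327419-165327718, plus strand) and DHCR7 (chr11:71448344-71448643, minus strand). Those of SREBF2 (chr22:41832855-41833154, plus strand) and NPC2 (chr14:74493463-74493762, minus strand), which rose on average, are shown with them. Capitals mark the letters CCAAT, the box bound by NF-Y, and TCACNCCA, the core of the classical sterol regulatory element, on either strand.
HMGCS1: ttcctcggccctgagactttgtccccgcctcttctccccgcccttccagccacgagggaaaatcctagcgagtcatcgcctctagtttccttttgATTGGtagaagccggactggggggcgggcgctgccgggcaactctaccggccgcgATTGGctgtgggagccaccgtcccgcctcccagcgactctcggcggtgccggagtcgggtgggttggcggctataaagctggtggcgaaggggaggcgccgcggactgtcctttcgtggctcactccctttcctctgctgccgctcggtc
FDPS: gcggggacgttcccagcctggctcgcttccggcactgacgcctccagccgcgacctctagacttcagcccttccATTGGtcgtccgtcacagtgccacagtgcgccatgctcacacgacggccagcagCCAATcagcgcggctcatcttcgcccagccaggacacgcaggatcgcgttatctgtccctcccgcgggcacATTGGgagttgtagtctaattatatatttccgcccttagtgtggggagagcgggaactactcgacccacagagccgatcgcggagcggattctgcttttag
MSMO1: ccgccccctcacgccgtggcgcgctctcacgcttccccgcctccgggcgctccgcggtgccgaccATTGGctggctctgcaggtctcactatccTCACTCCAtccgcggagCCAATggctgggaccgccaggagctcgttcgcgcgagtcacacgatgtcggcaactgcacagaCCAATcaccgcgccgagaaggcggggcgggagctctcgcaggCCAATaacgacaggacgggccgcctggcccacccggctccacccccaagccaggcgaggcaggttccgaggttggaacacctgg
DHCR7: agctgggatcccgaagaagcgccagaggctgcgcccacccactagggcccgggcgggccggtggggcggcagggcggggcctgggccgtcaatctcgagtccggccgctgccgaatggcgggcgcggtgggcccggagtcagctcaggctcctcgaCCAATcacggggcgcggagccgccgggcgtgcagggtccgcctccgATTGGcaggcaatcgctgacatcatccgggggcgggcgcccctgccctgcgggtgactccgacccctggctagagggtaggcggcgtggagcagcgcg
SREBF2: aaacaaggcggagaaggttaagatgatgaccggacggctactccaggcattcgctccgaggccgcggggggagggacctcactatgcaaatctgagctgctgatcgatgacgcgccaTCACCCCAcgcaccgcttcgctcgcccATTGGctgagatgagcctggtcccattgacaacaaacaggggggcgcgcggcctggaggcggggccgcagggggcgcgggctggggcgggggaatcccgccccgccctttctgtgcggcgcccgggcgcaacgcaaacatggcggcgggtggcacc
NPC2: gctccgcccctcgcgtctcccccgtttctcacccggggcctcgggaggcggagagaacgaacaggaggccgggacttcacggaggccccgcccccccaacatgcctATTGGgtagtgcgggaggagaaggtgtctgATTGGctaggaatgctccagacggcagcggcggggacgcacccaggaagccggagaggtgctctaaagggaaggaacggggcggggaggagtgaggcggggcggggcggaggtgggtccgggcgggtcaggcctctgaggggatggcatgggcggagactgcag
All 6 windows held CCAAT, with 4 matches in MSMO1, 3 in FDPS, 2 each in HMGCS1, DHCR7 and NPC2, and 1 in SREBF2. Over all genes with a window, CCAAT was present in 18 of the 29 members (62.1%) and in 12 of the 15 synthesis genes, against 35.7% of all 27305 promoters of the same length in the table. The sterol core was present in 3 of the 29 (MSMO1, MVK and SREBF2, 10.3%), against 3.93% of all promoters. No match of one motif overlapped a match of the other in the MSMO1 and SREBF2 windows. These matches describe letters only. Among the 6 windows shown, those of genes that fell and of genes that rose both hold CCAAT. The windows of IDI1, SREBF1, ABCA1 and ACACA, which also fell with the combination on average, held no CCAAT.

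Library totals ran from 5174269 to 18845074 counts (median 14499937.5), with the lowest member count at 17 (CYP51A1). Levels are given as CPM, counts scaled to a common library size, after TMM scaling. Transcripts of B-lineage genes (CD79A, CD79B, MS4A1, CD22, PAX5, BLK) summed to 944 to 2770 CPM in the DMSO libraries, while 5 T-cell genes summed to at most 23.8 CPM and 4 myeloid genes to at most 15.9 CPM. A list of 6 epithelial, fibroblast and endothelial genes summed to 5.66 to 76.8 CPM with DMSO and to at most 117 CPM with the combination, nearly all of it PECAM1 in Oci-Ly7 and Oci-Ly8, with EPCAM at or near 0, and its part in the results was not tested. Germinal centre markers BCL6 and MME were present in all 4 lines, while SERPINA9 was near 0 throughout. The libraries of Oci-Ly8 DMSO replicate 3 and Oci-Ly8 DOT1Li replicate 3 stood apart: log2 CPM rose with log2 exonic length by a slope that was 0.723 and 0.758 there against 0.822 to 1.008 in the other 46. Calls in Oci-Ly8 that are named below are therefore given with and without them. The mean slope was also higher with the combination than with DMSO in every line (0.884 against 0.828 in Oci-Ly7, 0.892 against 0.814 in Oci-Ly8, 0.984 against 0.941 in SUDHL6, and 1 against 0.973 in Oci-Ly18), so each average effect was also computed with the length trend removed. In bulk RNA, fewer cells expressing a gene and less RNA per cell cannot be told apart.

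With DMSO alone, by edgeR's test, the level differed between lines for 33 of the 34 genes (all but SCAP, adjusted p = 0.673), a share close to the 93.1% of all genes tested. Per kilobase of exon, the most abundant members were SCD, the desaturase that makes oleate (178 CPM per kb, mean of the 4 lines), and HMGCS1, which makes HMG-CoA (99.9 CPM per kb). IDI1 (60.8 CPM per kb), INSIG1 (60.2), FDFT1 (59.6) and FDPS (57.1) followed and differed among themselves by less than the lines did. The lowest were NR1H3 (1.53 CPM per kb) and CYP51A1 (1.06 CPM per kb). Of the exonic bases of CYP51A1, 79.4% are shared with a same-strand readthrough gene, so its counts are uncertain. The widest gap between lines was in the efflux pump ABCG1, at 66.8 ± 11.2 CPM in Oci-Ly7 and 15.1 ± 3.52 in Oci-Ly8 (mean ± SD, n = 3), a ratio of 4.42. HMGCS1 was 2.63 times and SCD 2.65 times as high in Oci-Ly7 as in the lowest line, and MVD was 3.04 times as high in Oci-Ly8 as in Oci-Ly18.

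**Figure D1:**
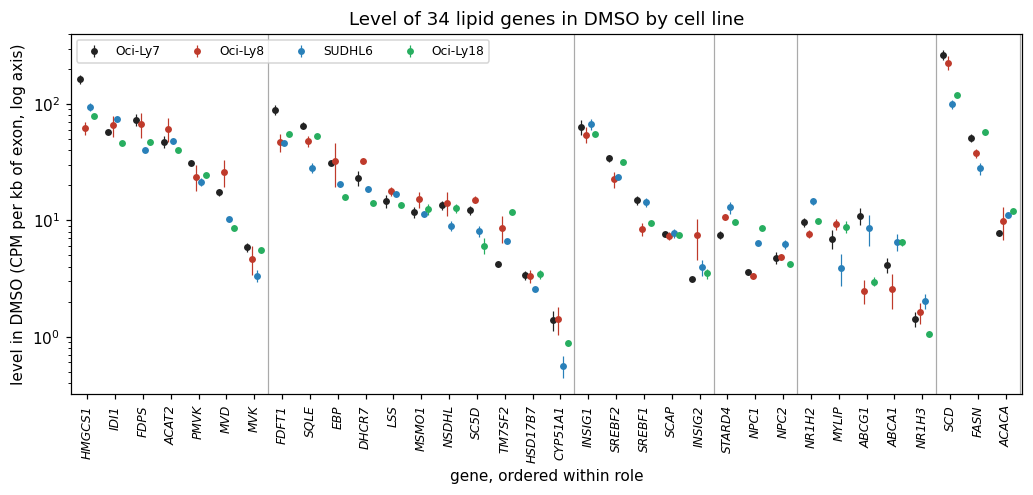
Level of each of the 34 genes in DMSO, in CPM per kilobase of exon on a log axis, with genes ordered by level within their role. Points are means of 3 libraries and bars are SD, 1 colour per line. SCD and HMGCS1 stand highest and CYP51A1 lowest, and ABCG1 shows the widest gap between lines.

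Averaged over the 4 lines, synthesis genes fell with the combination, and few genes of the set moved the other way. By edgeR's quasi-likelihood test with Benjamini-Hochberg adjustment over all genes, 19 of the 34 members were lower and 3 higher with the combination than with DMSO, while 20.7% of all genes were lower and 25.7% higher. With DOT1Li alone 10 were lower (5.19% of all genes) and 0 higher (5.08% of all genes; 0 at an unadjusted p under 0.05 and 0 with DESeq2). With EZH2i alone 2 were lower (12.5% of all genes) and 5 higher (15.7%), shares close to or below those of all genes. The median log2 fold change over the 34 members was -0.164 with the combination, -0.133 with DOT1Li and 0.0117 with EZH2i, against 0.0783, 0.0114 and 0.0304 over all genes. Of the 18 synthesis genes, 14 fell with the combination and the others did not pass. With DOT1Li the estimates of all 18 were negative, and 7 passed the test.

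**Figure D2:**
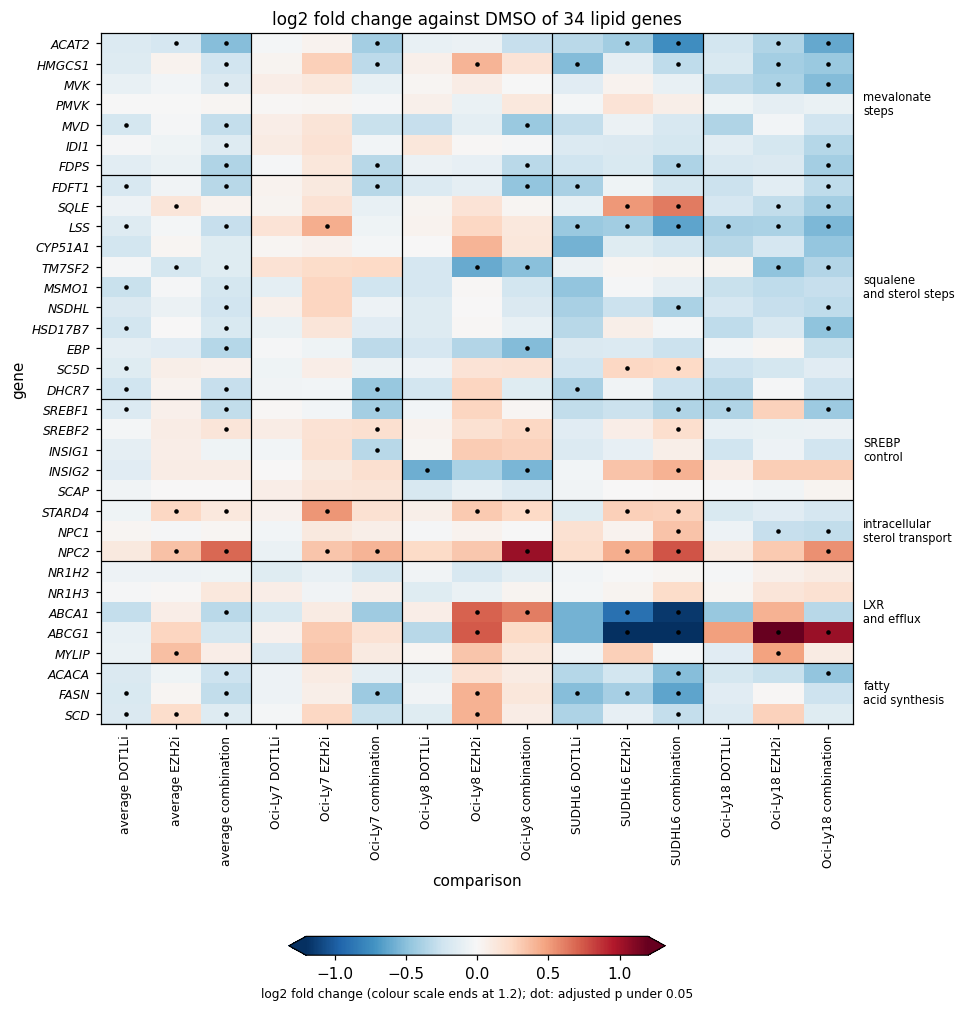
Log2 fold change against DMSO (colour, blue lower and red higher) of the 34 genes in rows, by role, for the averages of 4 lines and for each line. Dots mark adjusted p under 0.05. Blue with dots runs down the synthesis rows in the average combination column, NPC2 is red in all 4 combination columns, and ABCG1 is blue in SUDHL6 and red in Oci-Ly18.

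The combination calls rested on many libraries, and the DOT1Li calls less so. Leaving out each of the 48 libraries in turn, 19 of the 22 combination calls and all 7 EZH2i calls held throughout. MVK lost its combination call without 7 libraries (Oci-Ly7 DMSO 3 and combination 2, Oci-Ly8 DMSO 3 and combination 2, SUDHL6 DMSO 1 and combination 2, and Oci-Ly18 combination 2, adjusted p up to 0.0909). SCD lost its call without 7 (Oci-Ly7 DMSO 1 and combination 2 or 3, Oci-Ly8 DMSO 1, SUDHL6 DMSO 1 and combination 2, and Oci-Ly18 combination 1, up to 0.0734). TM7SF2 lost its call without 6 (Oci-Ly7 DMSO 1 and combination 3, Oci-Ly8 DMSO 3 and combination 1, SUDHL6 combination 3, and Oci-Ly18 combination 2, up to 0.135). Of the 10 DOT1Li calls, 4 (MSMO1, FDFT1, DHCR7 and FASN) held throughout. The count of DOT1Li calls was 5 without Oci-Ly7 DOT1Li replicate 3, 6 without Oci-Ly8 DOT1Li replicate 2, and 16 with no filter on low counts. It was also 16 with the replicate number as a block. HSD17B7 lost its DOT1Li call without Oci-Ly8 DOT1Li 2 (adjusted p = 0.0543), MVD without Oci-Ly7 DOT1Li 3, Oci-Ly8 DMSO 3 or Oci-Ly8 DOT1Li 2 (up to 0.0636), and SC5D without Oci-Ly7 DOT1Li 3, SUDHL6 DMSO 2, Oci-Ly18 DMSO 1 or Oci-Ly18 DOT1Li 2 (up to 0.0740). LSS, SREBF1 and SCD lost theirs without any one of 10, 13 and 18 libraries (up to 0.0815, 0.0931 and 0.0926), and all 3 with the length trend removed (adjusted p = 0.0506, 0.0695 and 0.0552). Without the 2 Oci-Ly8 libraries that stood apart, LSS and SREBF1 had adjusted p = 0.0935 and 0.101 with DOT1Li, and MVK and TM7SF2 0.0712 and 0.0984 with the combination. With the length trend removed, SCD and TM7SF2 had adjusted p = 0.0614 and 0.142 with the combination, and 16 members were lower and 4 higher with the combination. Without the 2 Oci-Ly8 libraries that stood apart, 16 were lower and 3 higher.

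Among the 7 genes of the early steps, 6 fell with the combination (all but PMVK), 1 with DOT1Li (MVD) and 1 with EZH2i (ACAT2). Of all genes, 20.7%, 5.19% and 12.5% were lower in the same order, so the EZH2i count was close to the share of all genes. ACAT2 (chr6:159762045-159779112 of GRCh38, GENCODE v29 model), which joins acetyl-CoA units at the head of the pathway, fell most. In SUDHL6 it was at 215, 210 and 193 CPM with DMSO, 163, 167 and 163 with DOT1Li, 154, 151 and 158 with EZH2i and, with the combination, 127, 119 and 122. Levels of ACAT2 in Oci-Ly18 were 169, 171 and 179 CPM with DMSO and 113, 111 and 116 with the combination. In both lines all 3 libraries of every inhibitor group lay below all 3 DMSO libraries. In Oci-Ly7 the combination libraries (188, 138 and 136) overlapped the DMSO libraries (226, 178 and 209), and in Oci-Ly8 the DMSO libraries were spread widely (213, 244 and 333) around the combination libraries (213, 218 and 219.9). The average combination effect was -0.51 (SE 0.057, adjusted p = 5.26e-10) by edgeR, a 1.42-fold reduction, against -0.20 (SE 0.056, adjusted p = 0.00544) with EZH2i and -0.17 (SE 0.057, adjusted p = 0.0507) with DOT1Li. On the other strand, exons of SOD2-OT1 cover 33.9% of the exonic bases of ACAT2, those of SOD2 26.5% and those of TCP1 9.23%, and whether counting used strand is not given in the sources used here. Over all libraries TCP1 had 368956 counts and SOD2-OT1 170, against 128611 for ACAT2. SOD2 had no counts under its GENCODE v29 identifier. The share of ACAT2 counts that came from these genes was not tested.

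FDPS (chr1:155308748-155320666), which makes farnesyl diphosphate, was the only early gene to pass the test with the combination in all 4 lines: -0.33 in Oci-Ly7, -0.32 in Oci-Ly8, -0.37 in SUDHL6 and -0.40 in Oci-Ly18, with an average of -0.36 (SE 0.057, adjusted p = 1.12e-06). In Oci-Ly18 its level was 173, 167 and 187 CPM with DMSO and 137, 135 and 127 with the combination. In SUDHL6 it was 150.4, 144 and 156 and 113, 116 and 119. The combination libraries lay below the DMSO libraries in these 2 lines and overlapped them in the others. The Oci-Ly7 call was lost without DMSO 1, combination 2 or combination 3 (adjusted p up to 0.146). The Oci-Ly8 call was lost without combination 2 or DMSO 3, and without the 2 libraries that stood apart the effect was -0.13 (adjusted p = 0.284). Antisense genes cover 18.6% of the exonic bases of FDPS (RUSC1-AS1), 14.8% of those of IDI1 (IDI2-AS1) and 15% of those of HMGCS1, with 973, 240 and 3 counts over all libraries against 136499, 180730 and 327836 for the 3 members.

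HMGCS1 (chr5:43287470-43313512), which makes HMG-CoA, behaved differently in the 4 lines with each inhibitor alone (adjusted p of the difference 0.000202 for EZH2i, 0.0365 for DOT1Li and, for the combination, 0.00604). The DOT1Li difference was called for 2 members, and that count ran from 1 to 4 as each of the 48 libraries was left out. In SUDHL6 HMGCS1 was at 489, 425 and 422 CPM with DMSO and 309.6, 314 and 308 with DOT1Li, with no overlap, a change of -0.52 (SE 0.11, adjusted p = 0.00198). With EZH2i it rose in Oci-Ly8, from 251, 312 and 312 CPM to 387, 385 and 386 (0.40, and 0.46, adjusted p = 0.0224 without the 2 libraries that stood apart). It fell in Oci-Ly18, from 369, 377 and 379 CPM to 292, 295 and 263 (-0.40, SE 0.11, adjusted p = 0.00487). The rise in Oci-Ly8 lost its call without DMSO replicate 1 (adjusted p = 0.0570). The average combination effect was -0.23 (SE 0.054, adjusted p = 0.000514), although the estimate in Oci-Ly8 was 0.16, and 0.20 (adjusted p = 0.281) without the 2 libraries that stood apart. The combination libraries of Oci-Ly8 (327, 324 and 328 CPM) lay above all its DMSO libraries.

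MVD (chr16:88651935-88663161), the mevalonate diphosphate decarboxylase, had average effects of -0.21 (SE 0.064, adjusted p = 0.0259) with DOT1Li and -0.28 (SE 0.063, adjusted p = 0.000255) with the combination. In Oci-Ly18 it was at 41.7, 38.9 and 42.1 CPM with DMSO, 31.9, 32.1 and 31.8 with DOT1Li, 41.9, 38.8 and 39.5 with EZH2i and, with the combination, 32.2, 34.5 and 38.3. The DOT1Li and combination libraries lay below DMSO there, without passing the test in that line, and the EZH2i libraries overlapped it. In Oci-Ly8 the combination call of MVD (-0.44, adjusted p = 0.00371) was lost without DMSO 3 (adjusted p = 0.166). It was also lost without the 2 libraries that stood apart. Mevalonate kinase, MVK, ranged from 16.3 to 44.9 CPM over the 48 libraries and passed the test in 1 line, Oci-Ly18, with -0.52 (SE 0.13, adjusted p = 0.00198) for the combination and -0.38 (SE 0.13, adjusted p = 0.0364) for EZH2i. The combination effect was not shown to differ between lines (adjusted p = 0.0845), and the EZH2i call was lost without any 1 of the 6 DMSO and EZH2i libraries of that line (up to 0.133). In Oci-Ly18 MVK was at 35.9, 34.1 and 37.2 CPM with DMSO and 24.4, 22.5 and 27.9 with the combination, and IDI1 at 206, 196 and 198 and 158, 160.4 and 154, with no overlap. The isomerase IDI1 ranged from 154 to 373 CPM and averaged -0.15 (SE 0.046, adjusted p = 0.00555) with the combination, with its single-line call in Oci-Ly18 (-0.34). PMVK, the next kinase, ranged from 22.2 to 43.9 CPM and passed no test against DMSO, with an average combination effect of 0.024 (SE 0.057).

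Of the 11 squalene and sterol genes, 8 fell with the combination, 6 with DOT1Li and 1 with EZH2i, while 1 (SQLE) rose with EZH2i. Of all genes, 20.7%, 5.19% and 12.5% were lower in the same order, and 15.7% were higher with EZH2i. The EZH2i counts lay below these shares. FDFT1 (chr8:11795573-11839304), the squalene synthase that commits the pathway to sterol, averaged -0.33 (SE 0.048, adjusted p = 1.35e-07) with the combination and -0.20 (SE 0.048, adjusted p = 0.00477) with DOT1Li. Its DMSO libraries in Oci-Ly18 were at 284, 290 and 293 CPM, and its combination libraries at 225, 236 and 242. In SUDHL6 the DOT1Li libraries (179.6, 188 and 183 CPM) lay below the DMSO libraries (251, 237 and 235) and, at their highest, below the lowest combination library (216, 192 and 217). In Oci-Ly8 the combination libraries (174, 173 and 177 CPM) lay below all DMSO libraries (213, 224 and 293), with an effect of -0.48, and -0.33 (adjusted p = 0.00362) without the 2 libraries that stood apart. The DOT1Li call in SUDHL6 was lost without DMSO 1 or DOT1Li 1 (adjusted p up to 0.0625), and the combination call in Oci-Ly7 without DMSO 1, combination 2 or combination 3 (up to 0.0806).

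SQLE (chr8:124998497-125022283), the squalene epoxidase and a rate-limiting step, rose in SUDHL6. In that line 2 of the other 17 synthesis genes fell with EZH2i (8.67% of all genes) and 5 with the combination (16.8% of all genes). SQLE there was at 134, 121 and 109 CPM with DMSO, 124, 113 and 105 with DOT1Li, 189.7, 165 and 169 with EZH2i and, with the combination, 199.7, 165 and 195. All EZH2i and combination libraries lay above all DMSO libraries, with changes of 0.52 (SE 0.086, adjusted p = 8.22e-06) and 0.62 (SE 0.086, adjusted p = 7.36e-08). In Oci-Ly18 the order was the reverse, with 227, 227 and 238 CPM with DMSO, 189.9, 194 and 182 with EZH2i and, with the combination, 176, 168 and 179.5, changes of -0.29 and -0.40 that both passed the test. These 4 calls held without any 1 library. The difference between lines passed its own test for EZH2i (adjusted p = 1.29e-05) and for the combination (adjusted p = 1.73e-08). SC5D, a late desaturase, also rose in SUDHL6, from 46.7, 48.6 and 39.4 CPM with DMSO to 55.2, 56.8 and 47.8 with EZH2i (0.25). With the combination it was at 53.7, 52.9 and 52.4 (0.24), where the combination libraries lay above DMSO and the EZH2i libraries overlapped it. Its EZH2i call was lost without DMSO 3, EZH2i 1 or EZH2i 2 and its combination call without DMSO 3 or combination 1 (adjusted p up to 0.255 and 0.217).

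LSS (chr21:46188141-46228824), which closes the first sterol ring, fell with each treatment in SUDHL6 and Oci-Ly18 and rose with EZH2i in Oci-Ly7. In SUDHL6 it was at 128, 120.4 and 120 CPM with DMSO, 89.5, 89.98 and 90.7 with DOT1Li, 97.8, 86.4 and 91.7 with EZH2i and, with the combination, 78.9, 78.4 and 80.1. Levels of LSS in Oci-Ly18 were 93.9, 101 and 102 CPM with DMSO, 71.8, 76.3 and 78.5 with DOT1Li, 74.02, 81.9 and 72.8 with EZH2i and, with the combination, 67.7, 67.5 and 69.7. Every inhibitor group of these 2 lines lay below DMSO and passed the test, the largest at -0.63 (SE 0.10, adjusted p = 1.16e-06). The DOT1Li call in Oci-Ly18 was lost without DMSO 3 or DOT1Li 1 (adjusted p up to 0.0713). In Oci-Ly7 it rose with EZH2i, from 117, 90.3 and 111 CPM to 158, 141 and 132 (0.44, SE 0.10, adjusted p = 0.00115). With the 12 Oci-Ly7 libraries fitted alone that rise had adjusted p = 0.134. In Oci-Ly8 the EZH2i libraries (152, 153 and 154 CPM) and the combination libraries (141, 138 and 144) lay above DMSO (116, 135 and 137), with changes of 0.25 (SE 0.10, adjusted p = 0.0775) and 0.13 (SE 0.10, adjusted p = 0.346), neither passing the test, nor without the 2 libraries that stood apart, where they were 0.29 (adjusted p = 0.108) and 0.16 (adjusted p = 0.327). LSS was 1 of the 2 members whose DOT1Li effect differed between lines (adjusted p = 0.00336), the other being HMGCS1, where 5.14% of all genes passed that test.

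DHCR7 (chr11:71428193-71452868), the last reductase before cholesterol, averaged -0.24 (SE 0.055, adjusted p = 0.00199) with DOT1Li and -0.27 (SE 0.054, adjusted p = 4.17e-05) with the combination, and 0.040 with EZH2i. In SUDHL6 its DMSO libraries were at 82.8, 75.9 and 74.5 CPM, its DOT1Li libraries at 58.8, 64.7 and 54.8 and its EZH2i libraries at 82.3, 68.8 and 75.3. The DOT1Li libraries lay below DMSO in every line except Oci-Ly7, where they overlapped. The DOT1Li effect passed the test in SUDHL6 only (-0.39, adjusted p = 0.0275). That call was lost without DMSO 1 or 2 or DOT1Li 1 or 3 (adjusted p up to 0.151). TM7SF2, a sterol reductase, fell with EZH2i in Oci-Ly8 (26.1, 23.8 and 38.5 CPM to 19.5, 18.97 and 19.3) and in Oci-Ly18 (40.4, 40.6 and 39.5 to 29.6, 28.2 and 28.5), by -0.61 and -0.48. Without the 2 libraries that stood apart the Oci-Ly8 value was -0.37 (adjusted p = 0.00615). In Oci-Ly7 its EZH2i libraries (17.7, 16.1 and 16.6) lay above DMSO (15.2, 13.5 and 14.6) without passing the test, and the difference between lines passed (adjusted p = 0.000137).

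The other late genes were given by their averages. With the combination EBP, a sterol isomerase, changed by -0.34 (SE 0.084, adjusted p = 0.000964). Leaving out 1 library brought this average to -0.25 at the smallest, and the call held. The EBP call in Oci-Ly8 (-0.52, adjusted p = 0.0134) was lost without the 2 libraries that stood apart. It was also lost without DMSO 3, combination 1 or combination 2 (adjusted p up to 0.473). With the combination NSDHL, which removes ring methyl groups, changed by -0.23 (SE 0.059, adjusted p = 0.00104), and HSD17B7, a sterol ketone reductase, by -0.18 (SE 0.060, adjusted p = 0.00954). MSMO1, the methyl oxidase of the same step, changed by -0.21 (SE 0.071, adjusted p = 0.0132) with the combination and -0.26 (SE 0.072, adjusted p = 0.0127) with DOT1Li. Its combination call had adjusted p = 0.0510 without the 2 Oci-Ly8 libraries that stood apart and 0.0813 with the length trend removed. CYP51A1, the ring demethylase, ranged from 1.26 to 8.004 CPM and passed no test of a treatment. Over the 48 libraries EBP ranged from 29.9 to 115 CPM, MSMO1 from 20.3 to 51.2, NSDHL from 11.8 to 33.6 and HSD17B7 from 9.58 to 18.9.

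Summed over the 18 synthesis genes, the level was lower with the combination than with DMSO in every library of 2 lines, SUDHL6 and Oci-Ly18. The sum was 2068, 1948 and 1885 CPM with DMSO in SUDHL6, 1573, 1611 and 1546 with DOT1Li, 1916, 1789 and 1819 with EZH2i and, with the combination, 1734, 1579.6 and 1741. In Oci-Ly18 it was 1886, 1883 and 1939.5 CPM with DMSO, 1593, 1647 and 1698 with DOT1Li, 1599, 1634 and 1551 with EZH2i and, with the combination, 1456, 1435 and 1467. In these 2 lines the DOT1Li and combination libraries lay below every DMSO library, and in Oci-Ly18 the EZH2i libraries did too. In Oci-Ly7 the combination libraries were at 2919, 2159.6 and 2099.6 CPM against 3064, 2593 and 2862 with DMSO, so replicate 1 lay within the DMSO range and the other two below it. In Oci-Ly8 the DMSO libraries were at 1969, 2193 and 2659.9 CPM, the highest being a library that stood apart, and the combination libraries at 2080.3, 2035 and 2124 lay inside that range. The sum is weighted towards the abundant HMGCS1, IDI1 and FDFT1 and was not tested.

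**Figure D3:**
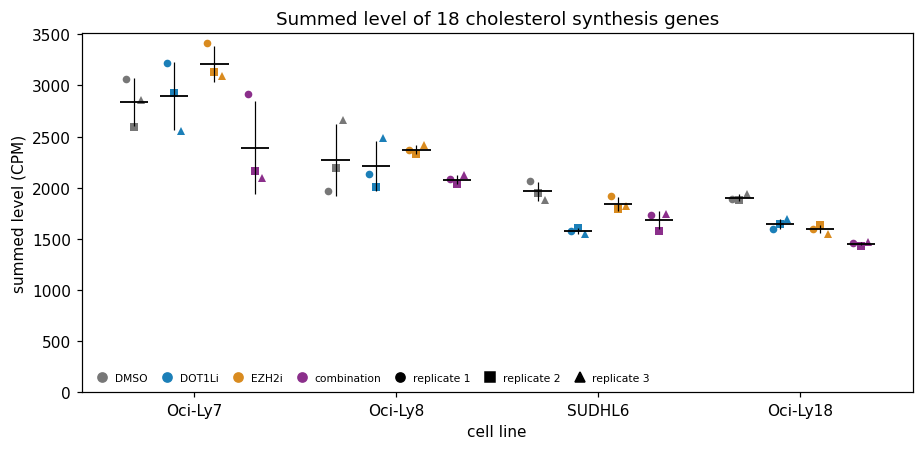
Summed level (CPM) of the 18 synthesis genes in each of the 48 libraries, by line and treatment. Symbols are replicates, horizontal lines are means of 3 and vertical lines SD. Combination libraries sit at 1435 to 1467 in Oci-Ly18, below all its DMSO libraries, while replicate 1 of the Oci-Ly7 combination, at 2919, sits apart from the other two.

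Among the 5 SREBP control genes the transcription factors moved apart. With the combination SREBF1 (chr17:17810399-17837002), which drives fatty acid genes most, fell by 0.30 on the log2 scale on average (SE 0.054, adjusted p = 1.16e-05), while SREBF2 (chr22:41833079-41907307), the main driver of cholesterol genes, rose by 0.15 (SE 0.038, adjusted p = 0.00129). SREBF1 in Oci-Ly18 was at 74.1, 76.2 and 77.7 CPM with DMSO, 55.1, 64.9 and 58.04 with DOT1Li, 90.1, 98.7 and 88.1 with EZH2i and, with the combination, 50.8, 55.9 and 61.7. There the EZH2i libraries lay above DMSO (0.28, adjusted p = 0.0585) and the DOT1Li and combination libraries below. The SREBF1 estimates with the combination were -0.41 in Oci-Ly7, 0.019 in Oci-Ly8, -0.36 in SUDHL6 and -0.44 in Oci-Ly18, all but Oci-Ly8 passing, where the value was 0.080 (adjusted p = 0.729) without the 2 libraries that stood apart. The SUDHL6 call was lost without DMSO 1 or combination 3 (adjusted p up to 0.0691). SREBF1 shares 6.92% of its exonic bases with RAI1 on the other strand.

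SREBF2 rose with the combination in Oci-Ly7 (276, 246 and 249.6 CPM to 313, 291 and 279.5), Oci-Ly8 (199, 169.7 and 143 to 202, 204 and 202) and SUDHL6 (181, 176 and 173 to 208, 201 and 202), and groups did not overlap in these 3. In Oci-Ly18 it was at 235, 245 and 244 and 229.7, 238 and 224, with overlap. The single-line changes were small, 0.20 in Oci-Ly7, 0.25 in Oci-Ly8, 0.20 in SUDHL6 and -0.069 in Oci-Ly18. In Oci-Ly8 the value was 0.13 (adjusted p = 0.0984) without the 2 libraries that stood apart, and the call was lost without DMSO 3. The Oci-Ly7 call was lost without DMSO 2 or 3 or combination 1 or 2 (adjusted p up to 0.192) and the SUDHL6 call without DMSO 2 or 3 or combination 1 (up to 0.0854), while the average held without any 1 of the 48 libraries.

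INSIG1, itself a classical SREBP target, passed no average test (-0.054, SE 0.059, adjusted p = 0.520 with the combination) and differed between lines there (adjusted p = 0.0102). It was at 265, 199 and 232 CPM with DMSO and 228, 164 and 162 with the combination in Oci-Ly7 (-0.33, SE 0.12, adjusted p = 0.0315), a call lost without DMSO 1 or 3 or combination 2 or 3 (adjusted p up to 0.219). With DMSO, INSIG2 was highest in Oci-Ly8 (mean 29.4 CPM) and lowest in Oci-Ly7 (12.2 CPM). In Oci-Ly8 it was uneven, at 40.6, 17.8 and 29.95 CPM with DMSO, 22.01, 13.7 and 25.4 with DOT1Li and 21.5, 18.7 and 20.01 with the combination, all overlapping. Its calls there (-0.59 and -0.55) were lost without DMSO replicate 1 (adjusted p = 0.339 and 0.258), and the DOT1Li call also without DMSO 3 or DOT1Li 2. Without the 2 libraries that stood apart they were -0.73 (adjusted p = 0.0373) and -0.54 (adjusted p = 0.0240). In SUDHL6 INSIG2 was higher with the combination (0.42, SE 0.17, adjusted p = 0.0446), a call lost without DMSO 3, combination 1 or combination 2 (adjusted p up to 0.220). SCAP, the escort protein, ranged from 39.03 to 57.3 CPM and passed no test against DMSO in any line.

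Of the 3 genes that move sterol inside the cell, NPC2 and STARD4 rose on average with EZH2i and with the combination, and NPC2 gave the largest average change of the 34. Of all genes, 15.7% were higher with EZH2i and 25.7% with the combination. NPC2 (chr14:74476192-74494177) is the soluble lysosomal protein that hands cholesterol to the membrane protein NPC1 for export from the lysosome. In Oci-Ly8 it was at 14.01, 12.4 and 13.6 CPM with DMSO, 15.4, 14.2 and 18.5 with DOT1Li, 14.9, 14.8 and 19.9 with EZH2i and, with the combination, 26.8, 26.3 and 28.8. In SUDHL6 it was at 18.95, 15.9 and 16.8 CPM, 21.1, 20.6 and 18.01, 22.1, 26.7 and 21.1 and 30.5, 28.8 and 27.5 in the same order. The combination libraries lay above the DMSO libraries in all 4 lines, and so did the EZH2i libraries.

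In Oci-Ly7 NPC2 was at 14.3, 11.5 and 13.5 CPM with DMSO and 15.5, 18.97 and 17.5 with the combination, and in Oci-Ly18 at 11.3, 11.9 and 11.3 and 14.02, 17.8 and 18.6. The changes with the combination were 0.41 in Oci-Ly7, 1.04 in Oci-Ly8, 0.75 in SUDHL6 and 0.54 in Oci-Ly18, all passing edgeR's test, with an average of 0.68 (SE 0.058, adjusted p = 5.69e-14), or 1.61-fold. The size differed between lines (adjusted p = 0.00851). The Oci-Ly8 value was 1.04 (adjusted p = 9.73e-10) without the 2 libraries that stood apart, and the Oci-Ly7 call was lost without DMSO 2 (adjusted p = 0.0664). EZH2i alone gave 0.35 (SE 0.059, adjusted p = 5.43e-06) and DOT1Li alone 0.12 (SE 0.061, adjusted p = 0.264). NPC2 shares 3.75% of its exonic bases with ISCA2 on the other strand. It was also the 1 member higher with the combination than with EZH2i (12.8% of all genes), by 0.33 (SE 0.056, adjusted p = 9.35e-06).

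STARD4, which carries cholesterol between membranes, rose with EZH2i in 3 lines and not in Oci-Ly18. It went from 46.5, 41.1 and 39.8 CPM with DMSO to 64.7, 60.3 and 59.3 with EZH2i in Oci-Ly7, from 64.5, 57.2 and 61.3 to 76.95, 74.2 and 75.5 in Oci-Ly8, and from 82.5, 71.8 and 65.8 to 90.9, 92.5 and 84.8 in SUDHL6, with no overlap. Levels of STARD4 in Oci-Ly18 were 54.3, 52.8 and 57.4 CPM with DMSO and 49.2, 50.2 and 50.2 with EZH2i, lower in all 3 libraries without passing the test. The changes were 0.53 in Oci-Ly7, 0.31 in Oci-Ly8, 0.29 in SUDHL6 and -0.14 in Oci-Ly18, and their difference passed (adjusted p = 0.000244). The value in Oci-Ly8 was 0.31 (adjusted p = 0.00912) without the 2 libraries that stood apart, and the SUDHL6 call was lost without DMSO 3 (adjusted p = 0.0869). NPC1, the membrane partner of NPC2, moved in opposite directions with the combination: from 64.7, 66.2 and 62.6 CPM to 82.9, 82.8 and 79.3 in SUDHL6 (0.34, SE 0.075, adjusted p = 0.000248) and from 87.1, 84.4 and 86.4 to 75.5, 63.3 and 71.2 in Oci-Ly18 (-0.29, SE 0.076, adjusted p = 0.00173). These calls held without any 1 library, the groups did not overlap in either line, and the difference between lines passed (adjusted p = 4.71e-05). NPC1 shares 5.98% of its exonic bases with RMC1 on the other strand.

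The efflux pumps gave the largest single-line changes of the set, in opposite directions. ABCG1 (chr21:42199689-42297244), which loads cholesterol onto lipoprotein particles, was at 67.9, 52.02 and 37.3 CPM with DMSO in SUDHL6, 38.3, 44.4 and 23.7 with DOT1Li, 26.7, 23.7 and 14.2 with EZH2i and, with the combination, 10.4, 13.1 and 8.62. All EZH2i and combination libraries lay below all DMSO libraries there. The DOT1Li libraries overlapped the DMSO libraries, each below the DMSO library of its own number, and did not pass the test. Levels of ABCG1 in Oci-Ly18 were 16.6, 19.7 and 18.4 CPM with DMSO, 25.1, 26.1 and 25.6 with DOT1Li, 44.6, 45.1 and 39.6 with EZH2i and, with the combination, 29.6, 38.5 and 44.1, all inhibitor libraries above DMSO. In SUDHL6 the fall was 2.42-fold with EZH2i (-1.28, SE 0.20, adjusted p = 1.08e-05) and 4.89-fold with the combination (-2.29, SE 0.22, adjusted p = 1.61e-10). In Oci-Ly18 the rise was 1.24 (SE 0.22, adjusted p = 3.3e-05) with EZH2i and 1.04 (SE 0.22, adjusted p = 0.000223) with the combination. These 4 calls held without any 1 library.

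The ABCG1 effect differed between lines for EZH2i (adjusted p = 1.49e-07) and for the combination (adjusted p = 2.49e-10), so its averages (0.25 and -0.21, neither passing) stand for no single line. In Oci-Ly8 it rose with EZH2i, from 16.6, 11.1 and 17.7 CPM to 24.7, 23.9 and 26.7 (0.74, SE 0.23, adjusted p = 0.0207, and 0.86, adjusted p = 0.0375 without the 2 libraries that stood apart). That call was lost without DMSO 2 or EZH2i 3 (adjusted p up to 0.112). In Oci-Ly7, where ABCG1 started highest, it was at 67.7, 55.3 and 77.6 CPM with DMSO and 86.7, 81.5 and 80.2 with EZH2i, without passing the test (0.31, adjusted p = 0.323).

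ABCA1 (chr9:104781006-104928155), which moves cholesterol to lipid-poor apolipoprotein, also fell in SUDHL6, from 81.7, 80.9 and 59.9 CPM with DMSO to 42.2, 46.3 and 30.9 with EZH2i (-0.90, SE 0.19, adjusted p = 0.000478) and 31.6, 37.8 and 30.2 with the combination (-1.16, SE 0.19, adjusted p = 6.75e-06). Neither group overlapped DMSO. In Oci-Ly18 its levels ran 78.1, 74.6 and 67.5 CPM with DMSO, 56.8, 55.9 and 47.4 with DOT1Li, 98, 102 and 93.6 with EZH2i and, with the combination, 53.5, 57.02 and 64.6. The EZH2i libraries lay above DMSO and the others below, though none passed the test (-0.46, 0.42 and -0.33). In Oci-Ly8 the DMSO libraries were at 36.8, 32.8 and 18.5 CPM and the EZH2i libraries at 44.9, 42.7 and 56.5. The changes there (0.70 with EZH2i and 0.61 with the combination) became 0.47 (adjusted p = 0.145) and 0.37 (adjusted p = 0.196) without the 2 libraries that stood apart. Those calls were also lost without EZH2i 3, and without combination 1 or 3. The average combination effect was -0.33 (SE 0.10, adjusted p = 0.00517) and the lines differed (adjusted p = 3.88e-05).

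Of the LXR receptors, NR1H2 ranged from 22.2 to 58.8 CPM and NR1H3 from 4.23 to 11.9 CPM over the 48 libraries, and neither passed a test against DMSO in any line. MYLIP rose with EZH2i on average (0.36, SE 0.082, adjusted p = 0.000636), with estimates of 0.34 in Oci-Ly7, 0.33 in Oci-Ly8, 0.28 in SUDHL6 and 0.49 in Oci-Ly18. In Oci-Ly18 it was at 23.3, 28.6 and 28.4 CPM with DMSO, 33.6, 41.5 and 37.4 with EZH2i and, with the combination, 22.4, 28.6 and 35.3. The EZH2i libraries lay above DMSO and the combination libraries overlapped it. The single-line call in Oci-Ly18 was lost without DMSO 1, EZH2i 2 or EZH2i 3 (adjusted p up to 0.118). With the combination the average was 0.079 (SE 0.083, adjusted p = 0.498), and lower than with EZH2i alone by -0.28 (SE 0.081, adjusted p = 0.00805).

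**Figure D4:**
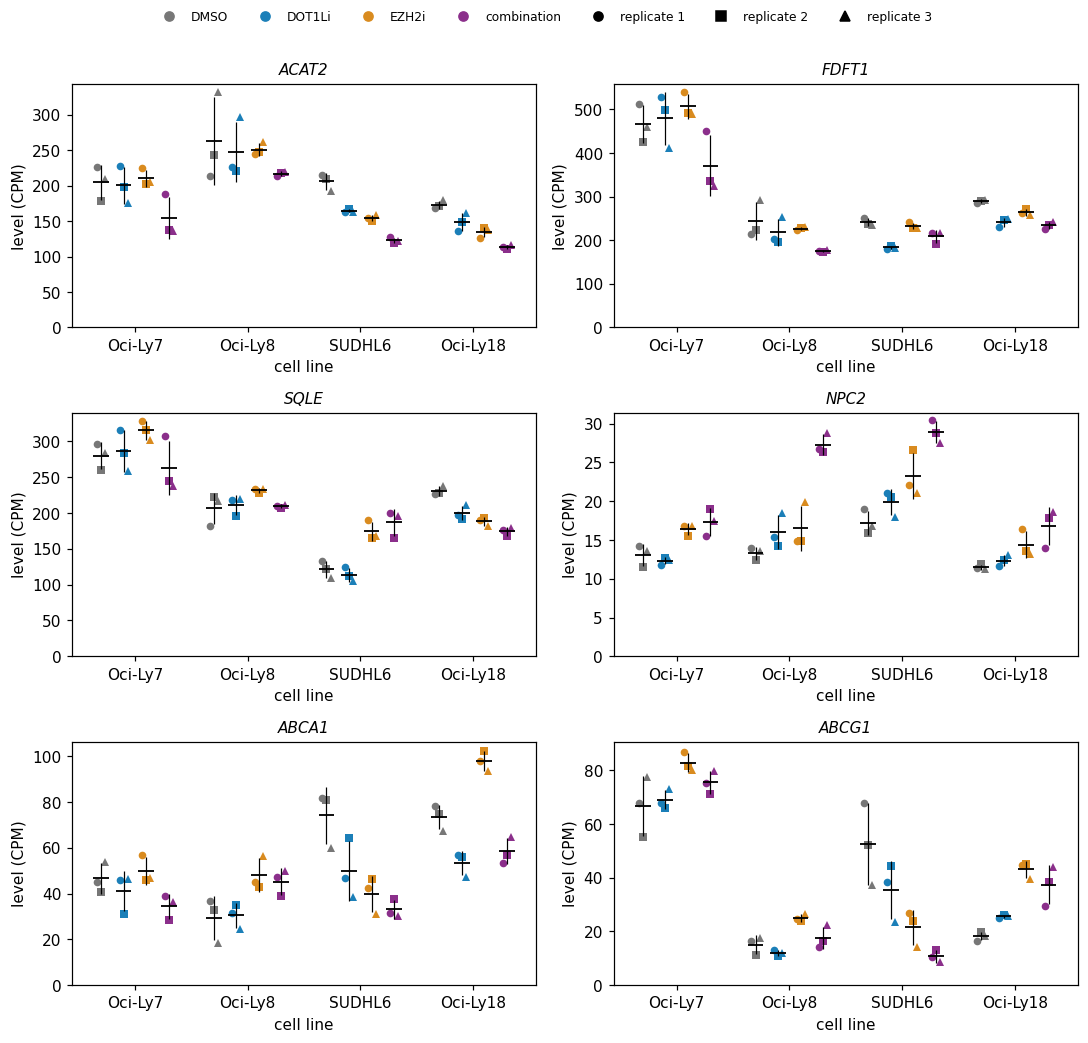
Level (CPM) in each of the 48 libraries of 2 synthesis genes that fell with the combination (ACAT2, FDFT1), of SQLE, of NPC2 and of the efflux pumps ABCA1 and ABCG1, by line and treatment. Symbols are replicates, horizontal lines means of 3 and vertical lines SD. NPC2 combination libraries sit above DMSO in all 4 lines, while ABCG1 falls in SUDHL6 and rises in Oci-Ly18.

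All 3 fatty acid genes fell with the combination on average: FASN, the fatty acid synthase, by -0.29 (SE 0.050, adjusted p = 3.83e-06), ACACA, the acetyl-CoA carboxylase, by -0.25 (SE 0.072, adjusted p = 0.00417), and SCD by -0.15 (SE 0.058, adjusted p = 0.0296). Of all genes, 20.7% were lower with the combination. FASN (chr17:82078338-82098294) in SUDHL6 was at 294, 257 and 234 CPM with DMSO, 189.9, 191 and 169 with DOT1Li, 223, 184 and 189.6 with EZH2i and, with the combination, 177, 155 and 177, each inhibitor group below DMSO. In Oci-Ly8 it rose with EZH2i, from 342, 392 and 328 CPM to 457, 478 and 479.9 (0.41, and 0.36, adjusted p = 0.0326 without the 2 libraries that stood apart). The difference between lines passed for EZH2i (adjusted p = 0.000303) and the combination (adjusted p = 0.000194).

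ACACA in Oci-Ly18 was at 159.5, 158 and 151 CPM with DMSO and 111, 113 and 114 with the combination (-0.47, SE 0.14, adjusted p = 0.00906), and in SUDHL6 at 150.3, 147 and 138 and 99.9, 95.7 and 110.1 (-0.51, SE 0.14, adjusted p = 0.00395). Neither pair of groups overlapped. SCD was the 1 fatty acid gene that rose with EZH2i on average (0.21, SE 0.058, adjusted p = 0.00435), and it was lower with the combination than with EZH2i by -0.36 (SE 0.058, adjusted p = 6.57e-06). In Oci-Ly18 SCD was at 624, 649 and 659 CPM with DMSO, 554, 579 and 588 with DOT1Li, 773, 813 and 753 with EZH2i and, with the combination, 537, 563 and 650. There the EZH2i libraries lay above DMSO and the DOT1Li libraries below, without passing the test in that line (adjusted p = 0.0854 and 0.552). Its Oci-Ly8 rise with EZH2i (0.42) became 0.31 (adjusted p = 0.103) without the 2 libraries that stood apart, and was also lost without EZH2i 1.

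Counted by line, Oci-Ly18 had the most members lower with the combination, at 14 lower (14% of all genes) and 2 higher (21.1%). SUDHL6 had 11 lower (16.8% of all genes) and 7 higher (22.6%), Oci-Ly7 8 lower (12.2% of all genes) and 2 higher (17.7%) and Oci-Ly8 6 lower (16.9% of all genes) and 4 higher (18.1%). The counts in Oci-Ly7 and Oci-Ly8 depended on single libraries: 4 were lower in Oci-Ly7 without DMSO 1, combination 2 or combination 3, and 3 in Oci-Ly8 without DMSO 3. The 2 higher in Oci-Ly7 became 0 without DMSO 2 and 1 without DMSO 3, combination 1 or combination 2, and the 4 higher in Oci-Ly8 became 2 without combination 1 or 3. In SUDHL6, 7 were lower without DMSO 1, and 3 or 4 higher without DMSO 3 or combination 1. In Oci-Ly18 between 12 and 14 were lower and 2 were higher whichever library was left out.

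With EZH2i the lines differed in direction. Oci-Ly7 had 0 lower (4.92% of all genes) and 3 higher (8.78%), with 0 lower at an unadjusted p under 0.05 and with DESeq2 as well. Oci-Ly8 had 1 lower (7.94% of all genes) and 6 higher (9.04%), SUDHL6 5 lower (8.67% of all genes) and 4 higher (14%) and Oci-Ly18 7 lower (9.04% of all genes) and 2 higher (13%). The 1 lower in Oci-Ly8 (TM7SF2) became 2 without DMSO 1 or 2, the 4 higher in SUDHL6 became 2 without DMSO 3, and the 2 higher in Oci-Ly18 became 1 without DMSO 1, EZH2i 2 or EZH2i 3. Of the 18 synthesis genes, 16 had positive estimates in Oci-Ly7 (median 0.140) and 17 had negative ones in Oci-Ly18 (median -0.211). By the test of the difference itself, the EZH2i effect differed between lines for 12 of the 34 members, against 24% of all genes, and the combination effect for 16, against 43.8%, so the members' shares (35.3% and 47.1%) were above and close to those of all genes.

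With DOT1Li between 0 and 5 members passed in each line. Oci-Ly7 had 0 lower (1.17% of all genes) and 0 higher (1.72%), with 0 at an unadjusted p under 0.05 and 0 with DESeq2 in each direction. Oci-Ly8 had 1 lower (2.73% of all genes) and 0 higher (3.53%), where 0 were higher at an unadjusted p under 0.05 and with DESeq2. SUDHL6 had 5 lower (2.11% of all genes) and 0 higher (2.76%) and Oci-Ly18 2 lower (2.12% of all genes) and 0 higher (4.03%), where 1 member each was higher at an unadjusted p under 0.05 and 0 with DESeq2. The estimates were mostly negative in SUDHL6 (32 of 34) and Oci-Ly18 (29 of 34). Fitted on the 12 libraries of the line alone, 14 were lower in SUDHL6 and 16 in Oci-Ly18. Without the 2 Oci-Ly8 libraries that stood apart, 13 were lower in SUDHL6. The 5 in SUDHL6 became 3 without DMSO 1 or DOT1Li 1. The 2 in Oci-Ly18 (LSS and SREBF1) became 0 without DMSO 3 and 1 without DMSO 1, DOT1Li 1 or DOT1Li 3. In Oci-Ly7, 1 was lower without DOT1Li 1. The 1 lower in Oci-Ly8 (INSIG2) became 0 without DMSO 1, DMSO 3 or DOT1Li 2 and 3 without DMSO 2 or DOT1Li 3, and 1 was higher there without DMSO 3. Same-numbered DMSO and DOT1Li libraries of Oci-Ly8 deviated together (correlations 0.286, 0.238 and 0.415), and with the replicate number as a block 2 members were lower there. More members were also lower with that block in SUDHL6 and Oci-Ly18, as given under the dependence on processing.

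Set directly against EZH2i alone, the combination was lower in 18 members and higher in 1, against 12.2% and 12.8% of all genes. SREBF1 (-0.36, SE 0.054, adjusted p = 1.65e-06), FASN (-0.32, SE 0.050, adjusted p = 3.96e-06) and FDFT1 (-0.29, SE 0.048, adjusted p = 8.67e-06) were among the 18. Of these, 14 held without any 1 library. NSDHL, MSMO1 and ACACA were lost without any 1 of 15, 13 and 17 libraries, and STARD4 without Oci-Ly7, Oci-Ly8 or SUDHL6 combination 2 (adjusted p up to 0.109, 0.0938, 0.0872 and 0.0580). Set against DOT1Li alone, it was lower in 5 (15.8% of all genes) and higher in 5 (19.4%). ACAT2 (-0.34, SE 0.057, adjusted p = 5.02e-06) and FDPS (-0.23, SE 0.057, adjusted p = 0.00141) were among those lower, and NPC2 (0.57, SE 0.058, adjusted p = 6.68e-11), SC5D (0.20, SE 0.045, adjusted p = 0.000347) and STARD4 (0.18, SE 0.042, adjusted p = 0.000797) among those higher. The 5 lower became 3 without Oci-Ly7 combination 2, 9 without Oci-Ly7 combination 1 and 9 with the length trend removed.

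A departure of the combination from the sum of the single effects, on the log2 scale, averaged over the 4 lines, was called by edgeR for 0 of 34 members, where 0.0225% of all genes were called above the sum and 0.0282% below it. At an unadjusted p under 0.05, 2 members lay above and 3 below, and DESeq2 called 0. In single lines the departure was called for 1 member, LSS in Oci-Ly7, where the combination lay below the sum, with a departure of -0.65 (SE 0.139, adjusted p = 0.0470). At adjusted p under 0.05, 0.0113% of all genes were called below the sum in that line and 0.0394% above it. At an unadjusted p under 0.05, 15 of the 34 members lay below the sum there and 0 above it. The share of all genes at that looser threshold is not given here, so the count of 15 has no background beside it. The LSS call was lost without DMSO 2, DOT1Li 1 or 2, EZH2i 1 or 2, or combination 2 or 3 of that line (adjusted p up to 0.362), and with those 12 libraries fitted alone (adjusted p = 0.636). The adjusted p was 0.0508, 0.0512 and 0.0521 with the length trend removed, with DESeq2 size factors and without the 2 Oci-Ly8 libraries that stood apart. The count of members below the sum in Oci-Ly7 was 9 without combination 1, 2 without DOT1Li 3, 9 with the replicate block and 8 with no filter on low counts. The other lines had 0 members called in each direction by edgeR and by DESeq2. At an unadjusted p under 0.05, 1 lay above and 0 below in Oci-Ly8, 2 and 0 in SUDHL6, and 1 and 2 in Oci-Ly18. At adjusted p under 0.05, 0.0507% of all genes were called above and 0.0507% below in Oci-Ly8, 0% and 0.0225% in SUDHL6, and 0.208% and 0.152% in Oci-Ly18. The comparisons against DMSO share the DMSO libraries, so their estimates are not independent of each other.

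Genes outside the 34 that feed or branch from the same pathways were mixed. Of 57 such genes tested, 20 were lower and 12 higher with the combination, 11 lower and 1 higher with DOT1Li, and 6 lower and 12 higher with EZH2i. The shares of all genes lower and higher were 20.7% and 25.7%, 5.19% and 5.08%, and 12.5% and 15.7% in the same order. The counts higher with the combination, higher with DOT1Li and lower with EZH2i thus lay below the share of all genes. The isoprenoid branch had 4 of 5 lower with the combination, among them NUS1 (-0.29, SE 0.039, adjusted p = 1.11e-08), which builds dolichol, and PDSS1 (-0.29, SE 0.047, adjusted p = 1.03e-06), which builds the ubiquinone tail. Among 23 genes of fatty acid supply, elongation and desaturation, 7 were lower and 5 higher. ACLY (-0.36, SE 0.037, adjusted p = 2.26e-11), the source of cytosolic acetyl-CoA, and ACSL4 (-0.38, SE 0.037, adjusted p = 3.59e-12), which activates polyunsaturated fatty acids, were among those lower. The list headed SREBP processing and sterol sensing gave 3 lower and 2 higher of 8. Among those lower was LBR (-0.37, SE 0.037, adjusted p = 8.71e-12), which is a sterol reductase of the nuclear envelope and not an SREBP processing gene. ERLIN2 (0.24, SE 0.047, adjusted p = 3.79e-05) was higher. Of 13 genes of uptake, esterification and transport 5 were lower and 4 higher, including SCARB1 (-0.32, SE 0.040, adjusted p = 2.29e-09), a lipoprotein receptor, and SOAT1 (-0.19, SE 0.040, adjusted p = 0.000107), which esterifies cholesterol. Of 8 oxysterol, RXR and LXR target genes 1 was lower (LPCAT3, -0.14) and 1 higher (RXRB, 0.24).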

How the data were processed

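RNA-seq of 48 cell line libraries was used, 3 for each of 16 groups of line and treatment, grouped by the labels. The authors deposited raw counts per gene in 1 table; the submitters' processing notes name STAR, DESeq2 and GRCh38 (hg38) without roles, and the sources used here state no counting program, strand setting or annotation release. Library totals were 5174269 to 18845074 counts. From these counts, edgeR 4.0.16 (R 4.3.3) kept 17749 genes by filterByExpr over the 16 groups, scaled libraries by TMM and fitted all 48 libraries with 1 mean per group (32 residual degrees of freedom). Contrasts were each treatment against DMSO by line and averaged over lines, the combination against each single agent, departure from additivity, and differences between lines, with a call at adjusted p under 0.05 (Benjamini-Hochberg, all genes). Alternatives were DESeq2 1.42.0, its size factors in edgeR, no low-count filter, a replicate block, each line alone, each library left out and 2 Oci-Ly8 libraries left out together. Removing a trend on exonic length, and additivity in single lines, were added after seeing the data. Gene models of GENCODE v29 gave positions, lengths and overlaps, and RefSeq (GRCh38.p14) gave promoters.

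The members and gene lists were chosen with earlier results of these data known. Per-library levels are given for up to 4 members of each role with the smallest p over the 3 average effects and up to 2 more with the smallest p for differences between lines, with the least changed of them given by their range. Genes outside the set are named up to 2 a list, by the smallest p of the average combination effect. Other values named were chosen after they were seen. No pair of replicates agreed within sampling noise (chi-square per degree of freedom 1.83 to 46.5 over 48 pairs).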

Additional observations from a re-analysis of the deposited data

Results flagged for a closer look

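Effects of 1 treatment that differed between the 4 lines, by edgeR's test of the difference itself, are listed with their adjusted p. With DOT1Li they were HMGCS1 (0.0365) and LSS (0.00336). With EZH2i they were HMGCS1 (0.000202), SQLE (1.29e-05), LSS (1.5e-06), TM7SF2 (0.000137), NSDHL (0.0273), SC5D (0.0317), SREBF1 (0.0139), STARD4 (0.000244), NPC1 (0.0191), ABCA1 (0.000113), ABCG1 (1.49e-07) and FASN (0.000303). With the combination they were HMGCS1 (0.00604), SQLE (1.73e-08), LSS (1.47e-05), TM7SF2 (0.000639), SC5D (0.0248), SREBF1 (0.0422), SREBF2 (0.0451), INSIG1 (0.0102), INSIG2 (0.00348), STARD4 (0.00299), NPC1 (4.71e-05), NPC2 (0.00851), ABCA1 (3.88e-05), ABCG1 (2.49e-10), ACACA (0.0298) and FASN (0.000194). ABCG1 had the lowest adjusted p for EZH2i and for the combination, where SUDHL6 moved down and Oci-Ly18 up. NSDHL with EZH2i had estimates of 0.26 in Oci-Ly7, 0.000118 in Oci-Ly8, -0.26 in SUDHL6 and -0.28 in Oci-Ly18, of which none passed alone.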

How the results depend on the processing

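Of 68 calls averaged over lines, DESeq2 kept 67, its size factors in edgeR 63, no low-count filter 68, the replicate block 68, leaving out Oci-Ly8 DMSO 3 and DOT1Li 3 63, and removal of the length trend 60. Of 90 single-line calls these settings kept 87, 85, 86, 90, 82 and 86, and the fit of each line alone 76. None changed direction. DESeq2 was not run for differences between lines. The lowest member count was 17 (CYP51A1).

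Counts of members moved as follows, with the value given first that of the text above. With the replicate block, DOT1Li lower went from 10 to 16, EZH2i higher from 5 to 8, combination against DOT1Li lower from 5 to 9, additivity from 0 to 1, and differences between lines from 2 to 7 with DOT1Li and 12 to 22 with EZH2i. Same-numbered libraries of a line correlated positively in all 72 pairs (0.0195 to 0.415), over 0.1 in 17 of them. Each of the 48 libraries correlated best on average with those of its own number. Same-numbered libraries thus shared some variation, which the main fit did not take into account. By line the block moved Oci-Ly7 EZH2i higher from 3 to 11, and combination lower from 8 to 14 and higher from 2 to 4. It moved Oci-Ly8 DOT1Li lower from 1 to 2, EZH2i lower from 1 to 3 and EZH2i higher from 6 to 13. It moved SUDHL6 DOT1Li lower from 5 to 15 and higher from 0 to 1. In Oci-Ly18 it moved DOT1Li lower from 2 to 10 and higher from 0 to 1, and EZH2i lower from 7 to 11 and higher from 2 to 6.

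With no filter, DOT1Li lower was 16, combination against DOT1Li lower 8, additivity 1, and differences between lines 7 with DOT1Li and 19 with EZH2i. By line it gave Oci-Ly7 EZH2i higher 6 and combination higher 1, Oci-Ly8 DOT1Li lower 2, EZH2i lower 3 and EZH2i higher 11, SUDHL6 DOT1Li lower 12, and Oci-Ly18 DOT1Li lower 6, DOT1Li higher 1 and EZH2i higher 5. Fitted alone, Oci-Ly7 had EZH2i higher 5 and combination lower 5. Oci-Ly8 alone had DOT1Li lower 0, combination lower 2 and combination higher 2. SUDHL6 alone had DOT1Li lower 14, DOT1Li higher 1 and EZH2i lower 10. Oci-Ly18 alone had DOT1Li lower 16, DOT1Li higher 1, EZH2i lower 15, EZH2i higher 7 and combination lower 23. With the 2 Oci-Ly8 libraries out, Oci-Ly7 combination higher was 4, Oci-Ly8 combination lower 3, and SUDHL6 DOT1Li lower 13 and higher 1. DESeq2 size factors gave Oci-Ly7 combination higher 1 and Oci-Ly18 DOT1Li lower 1. With the length trend removed Oci-Ly18 DOT1Li lower was 1 and combination against DOT1Li lower 9. Members below additivity in Oci-Ly7 went from 1 to 0 with DESeq2 size factors, the length trend removed or the line fitted alone, to 8 with no filter and to 9 with the replicate block. In Oci-Ly18 they went from 0 to 1 with no filter or the block and to 2 with the line alone. The cause of these moves was not tested.

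Leaving out each library in turn gave, averaged over lines, DOT1Li lower 5 to 14, EZH2i lower 2 and higher 5 to 6, and combination lower 17 to 20 and higher 3. Combination against DOT1Li gave lower 3 to 9 and higher 4 to 5, and against EZH2i lower 14 to 21 and higher 1. Differences between lines gave 1 to 4 with DOT1Li, 9 to 15 with EZH2i, 14 to 19 with the combination and 31 to 33 in DMSO. Oci-Ly7 gave DOT1Li lower 0 to 1 and higher 0, EZH2i lower 0 and higher 2 to 3, combination lower 4 to 12 and higher 0 to 3. Oci-Ly8 gave DOT1Li lower 0 to 3 and higher 0 to 1, EZH2i lower 1 to 2 and higher 4 to 7, combination lower 3 to 8 and higher 2 to 5. SUDHL6 gave DOT1Li lower 3 to 7 and higher 0, EZH2i lower 5 to 6 and higher 2 to 5, combination lower 7 to 12 and higher 3 to 7. Oci-Ly18 gave DOT1Li lower 0 to 2 and higher 0, EZH2i lower 5 to 7 and higher 1 to 2, combination lower 12 to 14 and higher 2. Departure from additivity gave 0 averaged over lines, 0 to 9 below the sum in Oci-Ly7, and 0 above it there and in either direction in the other lines.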
